A study of Mus musculus with 31 samples.

Results

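The 10 genes described here encode the translation initiation factor eIF2, its exchange factor eIF2B and a pair of factors with related names. Eif2s1, Eif2s2 and Eif2s3x encode eIF2α, eIF2β and eIF2γ. Eif2b1 to Eif2b5 encode eIF2Bα, eIF2Bβ, eIF2Bγ, eIF2Bδ and eIF2Bε, in that order. Eif2a and Eif2d encode eIF2A and eIF2D, which are single-chain proteins and no part of either complex. The genes were chosen by name, and all 10 were found among the 20704 genes of the ribosome-protected fragment (RPF) table and the 24593 genes of the total RNA table. Every member passed the filter on low counts in both tables.

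The cells were mouse squamous cell carcinoma (SCC) cells of the skin that carried HRas G12V. For TgfbrII the labels give the floxed allele (TgfbrII fl/fl), whereas the study's list of cell lines gives S51 and S51A as deleted for it, and the deposited counts were not used to settle this. In every group the endogenous Eif2s1 had been targeted by CRISPR, and a lentiviral Myc-tagged eIF2α driven by the PGK promoter stood in for it, as wild type in S51 cells and with serine 51 changed to alanine in S51A cells. Cells received vehicle (DMSO) or 100 nM bortezomib, an inhibitor of the proteasome, for 4.5 h by the labels, whereas the text of the study gives a shorter time. There were 3 RPF libraries of S51 vehicle, 4 of each other group, and 4 total RNA libraries of every group. Each line was grown from single sorted cells of a clonal parent and the study used more than a single clone of each genotype, but the labels do not name the clone of a library, so that the eIF2α allele and the history of the clones cannot be told apart.

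eIF2 is the GTP-binding complex that brings the initiator methionyl-tRNA to the ribosome. After each round it leaves bound to GDP, and eIF2B exchanges the GDP for GTP. The stress kinases HRI, PKR, PERK and GCN2 phosphorylate eIF2α at serine 51, and eIF2 so modified binds eIF2B and holds back its exchange activity. This is the core of the integrated stress response (ISR). eIF2γ carries the GTP and the tRNA, eIF2β assists in guanine nucleotide exchange and binds eIF5, and eIF2Bε holds the catalytic site of the exchange factor. eIF2A and eIF2D can deliver initiator tRNA without eIF2 in some settings.

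The serine at issue is shown because it is what sets the lines apart. In the RefSeq annotation of GRCm38 (mm10), Eif2s1 lies on the plus strand of chr12:78862072-78887010, and the codon of serine 51 (codon 52 of the frame, since the initiator methionine is not counted in the name) is in exon 2 of 8, in the coding sequence. The reference sequence of chr12:78866668-78866694 is printed with that codon in capitals.
Eif2s1 around serine 51: cttagtgaattaTCCagacgacgtatc
The deposited counts hold no base calls, so the exchange in S51A was not read here. According to the methods, the endogenous gene was disrupted by frameshifts and not removed, and the transgene differs from it by few bases in the coding sequence. The Eif2s1 counts therefore sum whatever RNA came from both.

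eIF2γ has a Y-linked copy in mice, Eif2s3y, which was looked at because eIF2γ can come from either gene. Translated from the RefSeq frames, their proteins are both 472 residues long and differ at 10 positions, while their reading frames differ at 194 of 1419 bases. The stretch of codons 52 to 60 holds 8 differences, all silent, and is printed with the differing bases in capitals, for Eif2s3x from the minus strand of chrX:94209617-94209643 and for Eif2s3y from the plus strand of chrY:1011860-1011886.
Eif2s3x codons 52 to 60: catggGaaGtcCacTgtGgtGaaGgcT
Eif2s3y codons 52 to 60: catggAaaAtcTacAgtTgtAaaAgcC
Of the 1391 words of 29 bases in the Eif2s3y frame, only 6 also occur in that of Eif2s3x, so footprints of these genes can be told apart.

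RPF libraries held 1038826 to 4902237 counted reads each, and those of total RNA 18758668 to 22994713. Levels are given in CPM, which are counts scaled to the library total after TMM adjustment of that total. Adjusted p-values were obtained with the quasi-likelihood test of edgeR and corrected by Benjamini-Hochberg over every gene tested. A member passed the test where that adjusted p was below 0.05. In the comparisons of groups, the libraries did not overlap for 28.1% to 34.4% of all genes tested in RPF. In total RNA this held for 49.3% to 56.9%, so a lack of overlap, where stated below, is common. Translation efficiency (TE) is the RPF level relative to total RNA. The lowest RPF count of a member in any library was 42, for Eif2d. Markers of keratinocytes summed to between 26680 and 39450 CPM in RPF, while Col1a2, Dcn, Cd3e, Lyz2, Cdh5, Dct and Tyr were at 0 in every RPF library. Of the other markers of fibroblasts, immune, endothelial and melanocyte cells, Cd68 lay between 7.28 and 16.9 CPM in RPF, Pdgfra reached 9.34 and Kdr 8.61 CPM, and Pmel, Pecam1, Col3a1, Col1a1 and Ptprc stayed at or under 1.51 CPM. The part of such cells in the results was not tested.

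RPF replicate 2 of S51 vehicle stood apart from the others of its group on several members. Its Eif2s1, Eif2s2 and Eif2a levels were 0.488, 0.474 and 0.522 times the mean of replicates 1 and 3. Eif2b3 and Eif2s3x lay at 0.646 and 0.659 times that mean, Eif2b1, Eif2b5 and Eif2b4 at 0.873, 1.03 and 1.12 times, and Eif2d and Eif2b2 at 1.21 and 1.33 times. Where leaving it out moved a result most, the value without it is also given.

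In RPF few members passed the test, at shares close to or below those of all genes in every comparison but that of the lines under bortezomib. Bortezomib changed 3 of the 10 in S51 cells, with Eif2s2 and Eif2b4 higher and Eif2d lower, where 30.8% of all genes tested passed. In S51A cells it changed 1, Eif2b5, which fell, beside 20.6% of all genes. Between the lines, 1 member passed under vehicle (Eif2s1, higher in S51A), beside 28.6% of all genes, and 4 passed under bortezomib, beside 31.5%. No member's response passed as different between the lines, where 2.35% of all genes did. The response differences of the 10 members ran from -0.44 to 0.64 on the log2 scale, so equal responses were not shown. At an unadjusted p under 0.05 the response differed for 1 member (Eif2d), and DESeq2 gave 0 as well. With library sizes alone the share of higher values among all genes whose responses differed went from 55.9% to 45.3%. Without S51 vehicle replicate 2 the numbers of members were 4, 2, 3, 5 and 0 in the same order, beside 30.1%, 30.6%, 28.7%, 39.8% and 5.02% of all genes.

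Total RNA was counted more deeply, and small differences passed the test there. In S51 cells 7 members changed with bortezomib, 5 up and 2 down, beside 59.8% of all genes, and in S51A cells 7 changed, 6 up and 1 down, beside 56.4%. None of these changes was above 1.5-fold. Under vehicle 8 members were lower in S51A than in S51 and none was higher, beside 63.8% of all genes in either direction. The median of the 10 differences was -0.21 on the log2 scale, while that of all genes was 0.00. Under bortezomib 5 were lower and 1 was higher, beside 65.7% of all genes. The responses of the lines differed for 3 members, beside 21.6% of all genes.

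The directions of the bortezomib changes in total RNA depend on the scaling. When TMM was left out and only library sizes were used, the median over all genes moved to -0.16 in S51 and -0.13 in S51A, and the share of called genes that were higher went from 49.6% to 25.99% and from 48.8% to 27.7%. The members were then 2 up and 4 down in S51, and 3 up and 4 down in S51A. Among the genes whose responses differed, the share that were higher went from 44.4% to 60.2%. Changes in total RNA with bortezomib are thus relative to the typical gene.

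TE passed the test for few genes of any kind. With bortezomib it fell for 2 members in S51 cells (Eif2a and Eif2d), beside 7.08% of all genes, and for none in S51A cells, beside 1.17%. At an unadjusted p under 0.05 that last count was 2, and DESeq2 called 1, Eif2b5. Under vehicle 1 member differed between the lines (Eif2s1), beside 0.0847% of all genes. Under bortezomib 3 members were higher in S51A (Eif2a, Eif2d and Eif2s3x), beside 4.76%. When RPF and total RNA were paired by lysate, the members that passed were 1 for S51 with bortezomib (Eif2d) and 0 in each comparison of the lines, with Eif2d under bortezomib at 0.50 (adjusted p = 0.056 by limma). The response passed as different for no member, beside 0.984% of all genes, while 2 had an unadjusted p under 0.05 and DESeq2 called 1, Eif2d. These response differences ran from -0.53 to 0.53 on the log2 scale. Without S51 vehicle replicate 2 of RPF the members were 3, 2, 1, 4 and 0 in the same order, beside 7.07%, 1.63%, 0.0626%, 8.89% and 2.12% of all genes. With library sizes alone the median TE change of all genes with bortezomib in S51 was 0.15, and the share of higher calls went from 20.2% to 68.9%. For the lines under bortezomib that share went from 85.8% to 55.3%, and for the response difference from 90.3% to 78.3%. The member calls of TE with bortezomib in S51 and between the lines under bortezomib were all lost in that scaling, and Eif2s1 (0.55, adjusted p = 0.015 by edgeR) was then called higher with bortezomib in S51.

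**Figure D1:**
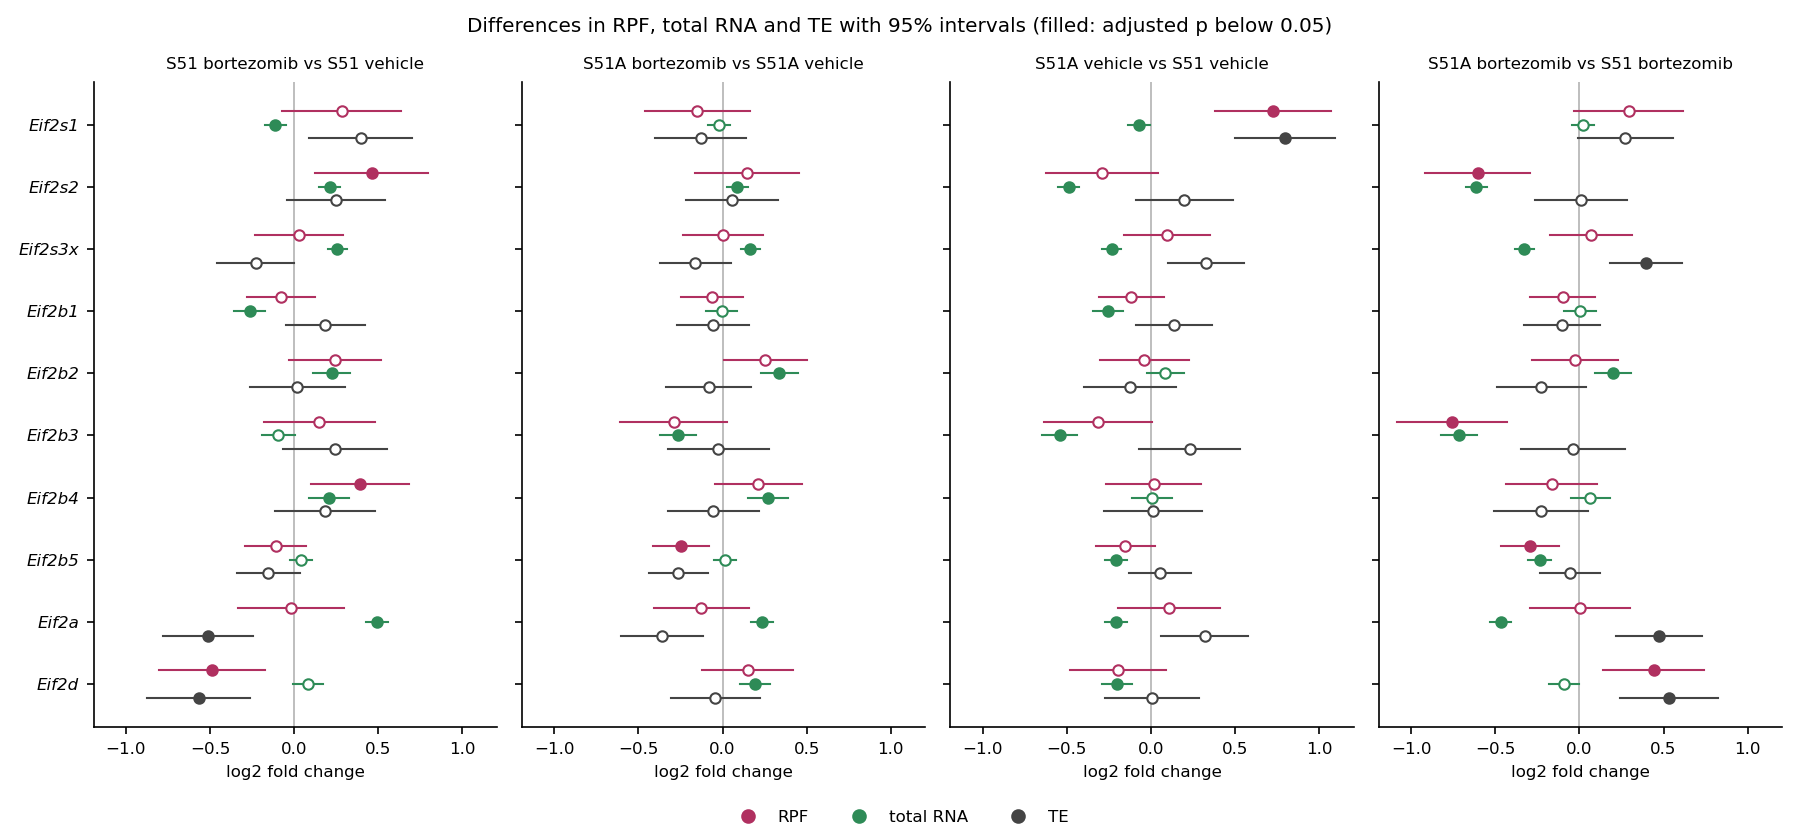
Log2 fold changes (x axis) of the 10 genes (rows) in 4 comparisons (panels), in RPF, total RNA and TE, with 95% intervals as bars and filled points where the adjusted p was below 0.05. The largest departures are those of Eif2s1 in RPF and TE between the lines under vehicle (0.73 and 0.80) and of Eif2b3 under bortezomib in RPF and total RNA (-0.76 and -0.72).

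Eif2s1, the gene that was replaced, had more footprints in S51A than in S51 cells under vehicle, with no matching difference in its RNA. Its RPF level was 162, 81.2 and 171 CPM in the S51 vehicle libraries and 213, 237, 213 and 260.0 CPM in those of S51A vehicle. All S51A libraries lay above all S51 libraries. The difference was 0.73 ± 0.17 (SE) on the log2 scale (95% interval 0.38 to 1.07, adjusted p = 0.0023 by edgeR). Without S51 vehicle replicate 2 it shrank to 0.48 and still passed (adjusted p = 0.00026 by edgeR). Total RNA of Eif2s1 was 310 ± 7.28 CPM (SD, n = 4) in S51 vehicle and 295 ± 6.71 (SD, n = 4) in S51A vehicle, a log2 difference of -0.07 that just passed (adjusted p = 0.047 by edgeR) and did not pass with library sizes alone, with no filter, or when any of 8 of the 16 libraries was left out.

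The TE of Eif2s1 was accordingly higher in S51A under vehicle, by 0.80 ± 0.15 (SE) on the log2 scale (adjusted p = 0.012 by edgeR), and by 0.55 without S51 vehicle replicate 2 (adjusted p = 0.0088 by edgeR). The call was lost without replicate 2 or replicate 4 of the S51A vehicle RPF libraries (adjusted p = 0.058 and 0.069 by edgeR). When TE was taken as the log ratio within each lysate, the difference was 0.87 and did not pass (adjusted p = 0.37 by limma). Eif2s1 reads sum the transgene and the disrupted endogenous gene, and the region counted for total RNA is not given. Its TE is therefore a ratio of counted reads and may not be that of a single mRNA.

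Bortezomib did not change Eif2s1 footprints past the test in either line. RPF levels under bortezomib were 164, 170.3, 196 and 148 CPM in S51 and 235, 215, 192 and 190.3 CPM in S51A. The S51 range overlapped that of its vehicle libraries, and so did the S51A range. The log2 changes were 0.28 (95% interval -0.07 to 0.64) and -0.15 (-0.46 to 0.16). That in S51 was 0.037 without S51 vehicle replicate 2 (adjusted p = 0.83 by edgeR). Between the lines under bortezomib the RPF difference was 0.29 with an adjusted p of 0.17 by edgeR, and it passed without S51 vehicle replicate 2 (adjusted p = 0.0079 by edgeR), a library of neither group, whose spread entered the shared estimate. With bortezomib, total RNA of Eif2s1 fell by 0.11 (log2) in S51 cells (adjusted p = 0.0032 by edgeR), with all 4 treated libraries below all 4 vehicle libraries. In S51A the change was -0.02.

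Eif2s2, the β subunit, had fewer footprints and less RNA in S51A than in S51 cells under bortezomib. Its RPF level was 812, 783, 848 and 809 CPM in S51 bortezomib against 597, 528, 518 and 495 CPM in S51A bortezomib. The ranges did not overlap, and the log2 difference was -0.61 ± 0.15 (SE, adjusted p = 0.0036 by edgeR). In total RNA the difference was -0.61 ± 0.03 (SE, adjusted p = 1.5e-14 by edgeR), so that the TE difference was 0.01 (95% interval -0.27 to 0.28).

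Under vehicle the same gene depended on replicate 2. Its RPF level was 718, 339 and 710.4 CPM in S51 and 470.5, 488, 435 and 537 CPM in S51A. Replicates 1 and 3 of S51 lay above every S51A library and replicate 2 lay below all of them. The log2 difference was -0.29 with all libraries (adjusted p = 0.18 by edgeR) and -0.56 without replicate 2 (adjusted p = 2.7e-07 by edgeR), while total RNA differed by -0.49 (adjusted p = 1.1e-12 by edgeR). The rise of Eif2s2 footprints with bortezomib in S51 cells, 0.46 with all libraries (adjusted p = 0.035 by edgeR), fell to 0.19 without replicate 2 (adjusted p = 0.062 by edgeR). Its total RNA rose by 0.21 in S51 and 0.09 in S51A. The responses differed by -0.12 (adjusted p = 0.045 by edgeR), a call that 11 of 16 single libraries, library sizes alone and no filter each ended.

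**Figure D2:**
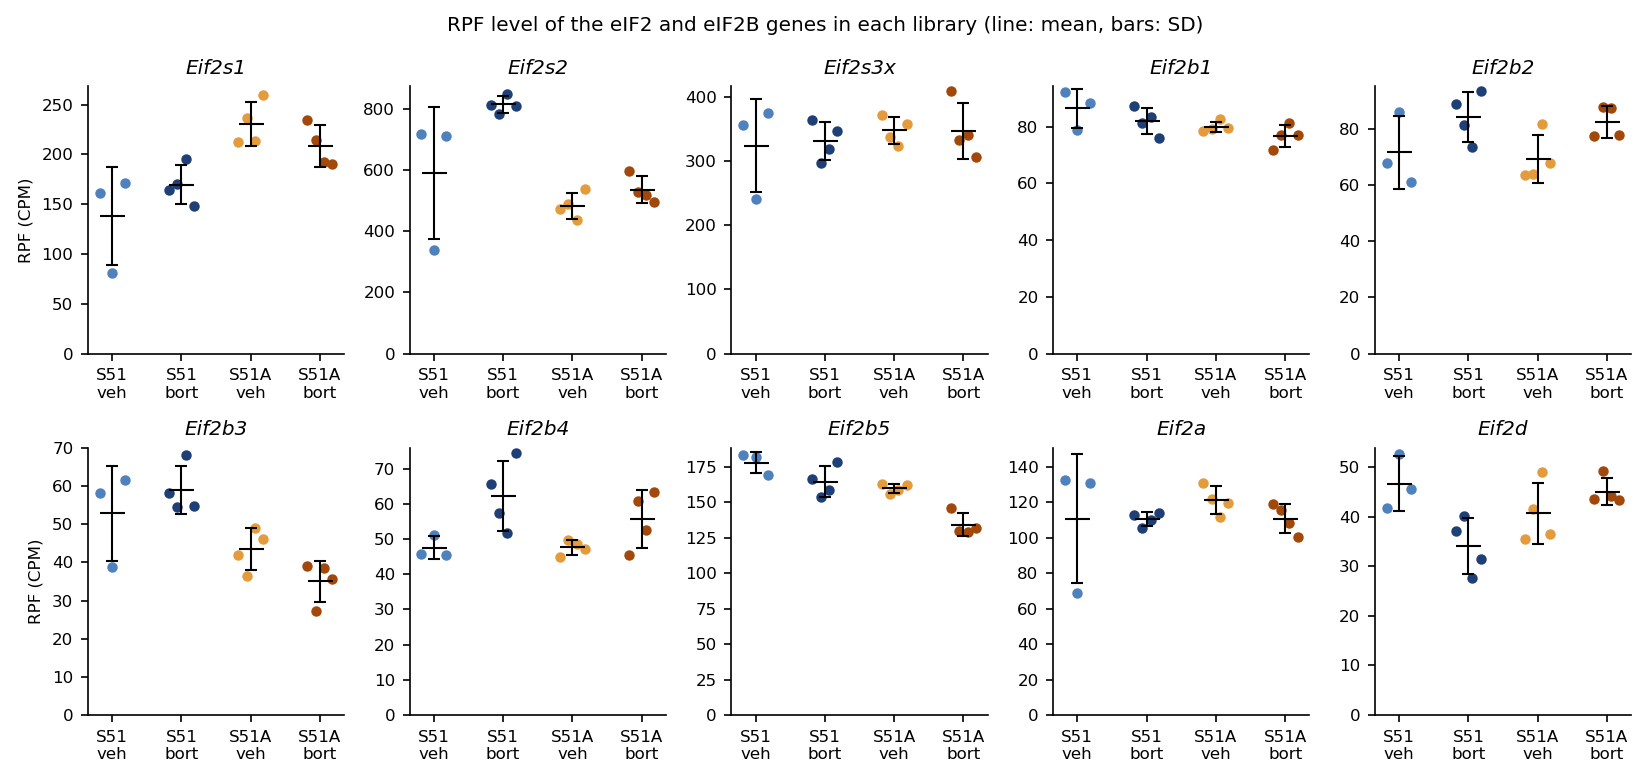
RPF level in CPM (y axis, from 0) of each gene (panels) in every library, by group (x axis; veh, vehicle; bort, bortezomib), with the mean and SD of each group. In S51 vehicle 1 library sits low for Eif2s1, Eif2s2 and Eif2a, at 81.2, 339 and 68.7 CPM, and in S51A all Eif2s1 points lie above those of S51 vehicle.

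Eif2s3x, the X-linked eIF2γ gene, had similar mean footprints in the groups, though equal levels were not shown. For S51 the group means were 325 ± 72.7 CPM (SD, n = 3) under vehicle and 332 ± 29.5 (n = 4) under bortezomib, and for S51A they were 348 ± 21.5 and 348 ± 43.5 (n = 4 each). None of the 4 RPF differences between groups passed, and they ran from 0.00 to 0.10 on the log2 scale. Without S51 vehicle replicate 2 the change with bortezomib in S51 was -0.14 and the difference of the lines under vehicle -0.08, neither past the test, while TE in S51 changed by -0.40 with bortezomib (adjusted p = 0.0017 by edgeR), against -0.23 with all libraries (adjusted p = 0.25 by edgeR). Its total RNA was 536 ± 6.40, 640.5 ± 8.91, 456 ± 8.15 and 510.2 ± 6.44 CPM (SD, n = 4 each) in the same order, with no overlap between the groups compared (as for 49.3% to 56.9% of all genes by comparison). It rose with bortezomib by 0.26 in S51 and 0.16 in S51A, and was lower in S51A by 0.23 under vehicle and 0.33 under bortezomib. TE under bortezomib was higher in S51A by 0.39 (adjusted p = 0.020 by edgeR). Within lysates this difference was also 0.39 and did not pass (adjusted p = 0.14 by limma). Nor did it pass without S51 bortezomib replicate 2 or 3 or S51A bortezomib replicate 1 of RPF (0.35, 0.38 and 0.31).

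Eif2s3y had no read in any S51 library of either kind. In S51A vehicle its RPF level was 42.5, 44.1, 43.2 and 53.9 CPM, and in S51A bortezomib 55.4, 36.1, 45.3 and 51.1 CPM. In total RNA the S51A libraries ran from 54.3 to 63.3 CPM, on 1117 to 1343 reads. Against a floor of 3 counts in the S51 library where 3 counts weigh most, the lowest S51A library was at least 29.3-fold higher in RPF and at least 359-fold higher in total RNA under vehicle, and at least 12.6-fold and 377-fold higher under bortezomib. Such floors cover counting error only. The other Y-linked genes looked at were alike in this. Ddx3y, Uty and Kdm5d had at most 2 reads in any S51 library, against 436 to 1304 in total RNA and 15 to 107 in RPF of S51A. These 3 genes were chosen after the Eif2s3y values were seen.

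The eIF2γ genes were not counted on equal terms. Words of 29 bases that recur elsewhere in the genome made up 98.3% of the counted sequence of Eif2s3x and 0.451% of that of Eif2s3y, the column names state that only uniquely mapping reads were kept, and the region counted for total RNA is not given. The share of Eif2s3y may therefore be too high, and sums over both genes may weigh Eif2s3y, which had no read in S51, more than Eif2s3x. Of the reads counted, Eif2s3y made up 11.7% ± 1.17 (SD, n = 4) of eIF2γ footprints in S51A vehicle and 11.9% ± 1.85 (n = 4) in S51A bortezomib. The shares in total RNA were 10.8% ± 0.317 and 10.6% ± 0.323 (SD, n = 4 each). With both genes summed, the log2 difference in eIF2γ RNA between S51A and S51 was -0.07 under vehicle and -0.17 under bortezomib (exact permutation p = 0.029 and adjusted p = 0.053 for each), where that of Eif2s3x alone was -0.23 and -0.33. In footprints the sum was 325 ± 72.7 CPM (SD, n = 3) in S51 vehicle and 394 ± 23.3 (n = 4) in S51A vehicle, a log2 difference of 0.31 with an exact permutation p of 0.11 (two-sided, adjusted p = 0.15 over 24 tests). It was 0.10 without S51 vehicle replicate 2. Under bortezomib the difference was 0.25 (exact permutation p = 0.057, adjusted p = 0.086).

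**Figure D3:**
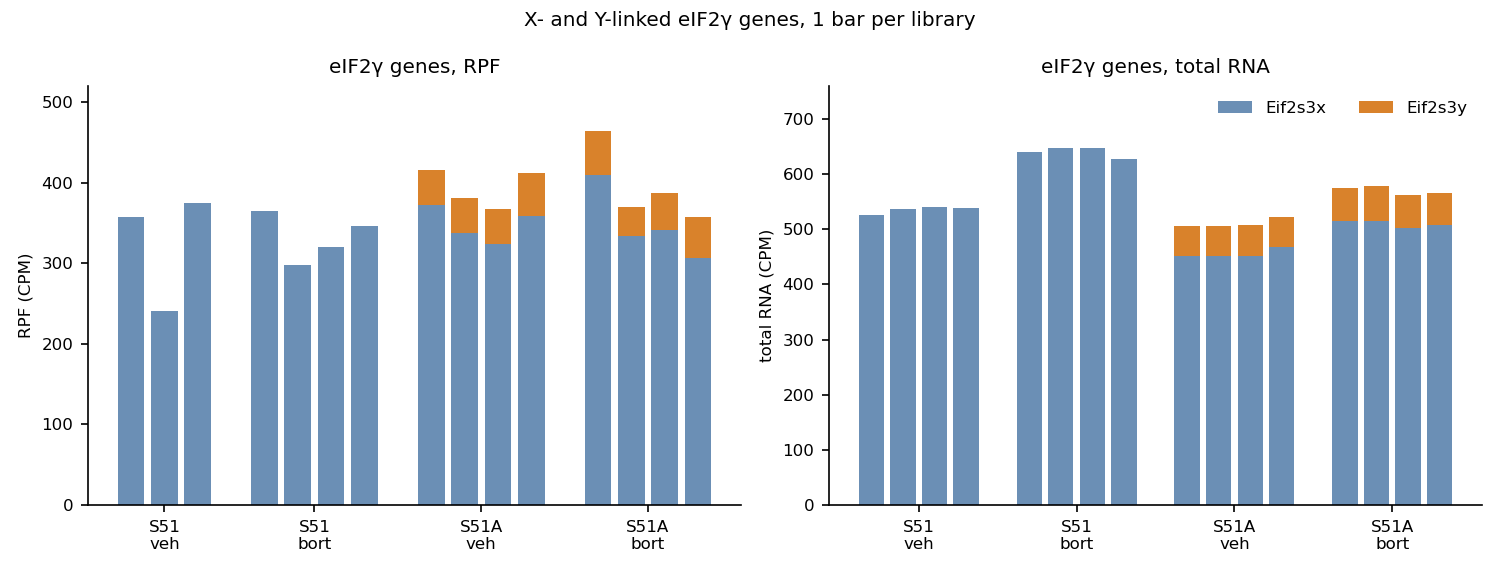
Level in CPM (y axis, from 0) of Eif2s3x and, stacked on it, Eif2s3y in each library (bars), for RPF (left) and total RNA (right), by group (x axis; veh, vehicle; bort, bortezomib). S51 libraries show Eif2s3x alone, and the Eif2s3y share of counted reads in S51A libraries lies near 11.7% in RPF and 10.8% in total RNA under vehicle, a share that may be too high since far more of Eif2s3x than of Eif2s3y recurs elsewhere in the genome.

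Relative to its β partner, eIF2α had more footprints in S51A cells, and this ratio was not disturbed by S51 vehicle replicate 2. The ratio of Eif2s1 to Eif2s2 CPM in RPF was 0.225, 0.240 and 0.241 in S51 vehicle, the middle one of these values being replicate 2. It lay between 0.452 and 0.491 in S51A vehicle, between 0.184 and 0.231 in S51 bortezomib and between 0.371 and 0.407 in S51A bortezomib. The ratio was thus 2.03-fold higher in S51A under vehicle, with no overlap (exact permutation p = 0.057, two-sided, the smallest that 3 against 4 libraries allow, adjusted p = 0.086), and 1.87-fold higher under bortezomib (exact permutation p = 0.029, the smallest that 4 against 4 allow, adjusted p = 0.053). In total RNA the ratio was 0.403 ± 0.00549 (SD, n = 4) in S51 vehicle and 0.539 ± 0.0156 (SD, n = 4) in S51A vehicle, a difference of 1.34-fold, and 1.55-fold under bortezomib (exact permutation p = 0.029 and adjusted p = 0.053 for each).

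The mean of this ratio was lower with bortezomib in each line and kind of library, although none of the 24 tests on ratios and sums passed (lowest adjusted p = 0.053, exact permutation). With 3 against 4 libraries even full separation gives an exact permutation p of 0.057, so these tests could not pass. With 4 against 4 libraries full separation gave the adjusted p of 0.053, so that not passing decides little. In S51A footprints it went from 0.478 ± 0.0177 to 0.389 ± 0.0153 (SD, n = 4 each), with no overlap (exact permutation p = 0.029, adjusted p = 0.053). In S51 footprints it went from 0.235 ± 0.00881 (SD, n = 3) to 0.208 ± 0.0203 (n = 4), with overlap (exact permutation p = 0.11, adjusted p = 0.15). In total RNA it was 0.800 times the vehicle value in S51 and 0.927 times in S51A, without overlap in either (exact permutation p = 0.029 and adjusted p = 0.053 for each).

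The ratio of Eif2s1 to the eIF2γ sum behaved differently between the kinds of library. In RPF it was 0.415 ± 0.0677 (SD, n = 3) in S51 vehicle and 0.586 ± 0.0538 (SD, n = 4) in S51A vehicle, with no overlap (exact permutation p = 0.057, the smallest possible, adjusted p = 0.086). The log2 difference was 0.51, and 0.36 without S51 vehicle replicate 2. In total RNA it was 0.578 ± 0.00748 and 0.577 ± 0.0103 (SD, n = 4 each), and these overlapped (exact permutation p = 0.89, adjusted p = 0.92). Under bortezomib the RPF ratio was 0.515 ± 0.0902 in S51 and 0.529 ± 0.0381 in S51A (SD, n = 4 each), also overlapping (exact permutation p = 0.71, adjusted p = 0.82). The total RNA ratio was then 0.448 ± 0.00844 in S51 and 0.509 ± 0.0159 in S51A (SD, n = 4 each), with no overlap (exact permutation p = 0.029, adjusted p = 0.053). With bortezomib the total RNA ratio was 0.774 times the vehicle value in S51 and 0.881 times in S51A, without overlap in either. In RPF these values were 1.24 and 0.904 times, with overlap in both.

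**Figure D4:**
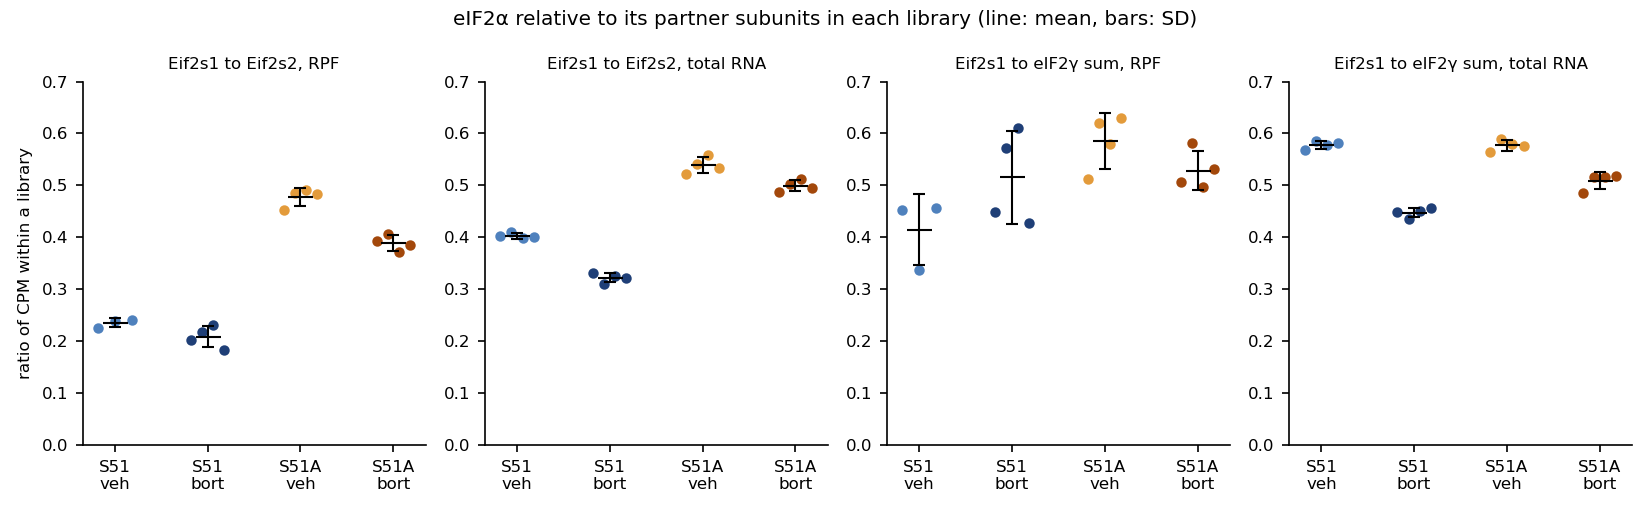
Ratio of CPM within a library (y axis, from 0) of Eif2s1 to Eif2s2 (2 left panels) and to the sum of Eif2s3x and Eif2s3y (2 right panels), in RPF and total RNA, by group (x axis; veh, vehicle; bort, bortezomib), with means and SD. The S51A points of the Eif2s1 to Eif2s2 ratio lie above all S51 points of the same treatment in both kinds of library, from 0.452 to 0.491 against 0.225 to 0.241 in RPF under vehicle.

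Among the eIF2B subunits Eif2b3, which encodes eIF2Bγ, differed most between the lines. In S51 cells its total RNA was 42.9 ± 1.54 CPM (SD, n = 4) under vehicle and 40.2 ± 0.292 under bortezomib, and in S51A cells 29.4 ± 1.76 and 24.5 ± 0.918 (n = 4 each). No pair of the groups compared overlapped, as held for 49.3% to 56.9% of all genes by comparison. The log2 difference between the lines was -0.54 ± 0.05 (SE) under vehicle (adjusted p = 9.8e-10 by edgeR) and -0.72 ± 0.05 under bortezomib (adjusted p = 1.1e-11 by edgeR). The gene lies at chr4:117019399-117086852 (plus strand).

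Footprints of Eif2b3 under bortezomib were 58.2, 54.5, 68.1 and 54.9 CPM in S51 and 38.98, 27.3, 38.5 and 35.6 CPM in S51A. All S51A libraries were lower, by -0.76 ± 0.16 (SE) on the log2 scale (adjusted p = 0.00093 by edgeR). Under vehicle they were 58.1, 38.7 and 61.7 CPM in S51 and 42.0, 36.3, 49.0 and 46.2 CPM in S51A. That difference, -0.31, did not pass with all libraries (adjusted p = 0.13 by edgeR) and was -0.48 without S51 vehicle replicate 2 (adjusted p = 0.0044 by edgeR). TE differed by -0.04 under bortezomib (95% interval -0.35 to 0.27). With bortezomib, total RNA of Eif2b3 fell by 0.27 in S51A cells (adjusted p = 0.00013 by edgeR) and changed by -0.09 in S51 (adjusted p = 0.10 by edgeR). The difference of these responses, -0.17, did not pass (adjusted p = 0.088 by edgeR).

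Eif2b5, the catalytic ε subunit, was lower in S51A cells in total RNA and in footprints, with the footprint difference past the test under bortezomib only. Under vehicle its RPF level ran from 169 to 183 CPM in S51 and from 156 to 163 CPM in S51A. These ranges did not overlap, as held for 33.0% of all genes tested, but the difference did not pass (by DESeq2, log2 difference -0.17, adjusted p = 0.14). Under bortezomib its RPF level was 167, 154, 159 and 179 CPM in S51 and 146, 129.6, 129.0 and 132 CPM in S51A, with no overlap (log2 difference -0.29 ± 0.08 SE, adjusted p = 0.0095 by edgeR). Total RNA differed by -0.21 under vehicle and -0.24 under bortezomib (adjusted p = 4.6e-06 and 6.0e-07 by edgeR). Within S51A, bortezomib lowered its footprints by -0.25 (adjusted p = 0.030 by edgeR) with total RNA at 0.01. This footprint call was lost when any of 7 of the 8 S51A libraries was left out (adjusted p = 0.052 to 0.097 by edgeR) and with no filter. Without S51 vehicle replicate 2, a library of neither group, it was kept (adjusted p = 0.0082 by edgeR).

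Eif2b4, which encodes eIF2Bδ, and Eif2b2, which encodes eIF2Bβ, had total RNA that rose with bortezomib relative to the typical gene. In footprints, only the rise of Eif2b4 in S51 passed with all libraries. Eif2b4 RPF was 45.7, 51.2 and 45.6 CPM in S51 vehicle and 65.5, 57.4, 51.8 and 74.5 CPM in S51 bortezomib, all above (log2 change 0.39 ± 0.14 SE, adjusted p = 0.039 by edgeR). The call was lost when any of 4 libraries was left out, S51 vehicle replicates 1 and 3 and S51 bortezomib replicates 1 and 4 (log2 change 0.29 to 0.37). In S51A its footprints changed by 0.21 (adjusted p = 0.25 by edgeR). Its total RNA rose by 0.21 in S51 and 0.27 in S51A. Total RNA of Eif2b2 rose by 0.22 in S51, where treated and vehicle libraries overlapped. In S51A it rose by 0.34, from 33.4 ± 0.668 to 42.3 ± 1.94 CPM (SD, n = 4 each). Its RPF changes, 0.24 and 0.25, did not pass with all libraries, and both passed without S51 vehicle replicate 2 (0.38 and 0.26).

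Eif2b1, which encodes the regulatory subunit eIF2Bα, differed from its partners in total RNA. It was 81.4 ± 3.84 CPM (SD, n = 4) in S51 vehicle and 67.8 ± 2.72 in S51 bortezomib, a fall of 0.26 (adjusted p = 1.5e-05 by edgeR), and 68.2 ± 2.36 and 68.0 ± 3.18 in S51A vehicle and bortezomib (n = 4 each). The S51 vehicle libraries were above those of both groups with which they were compared. The responses differed by 0.26 ± 0.06 (SE, adjusted p = 0.0044 by edgeR). Its footprints ran from 71.8 to 92.1 CPM over all 15 libraries, and no RPF difference passed.

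**Figure D5:**
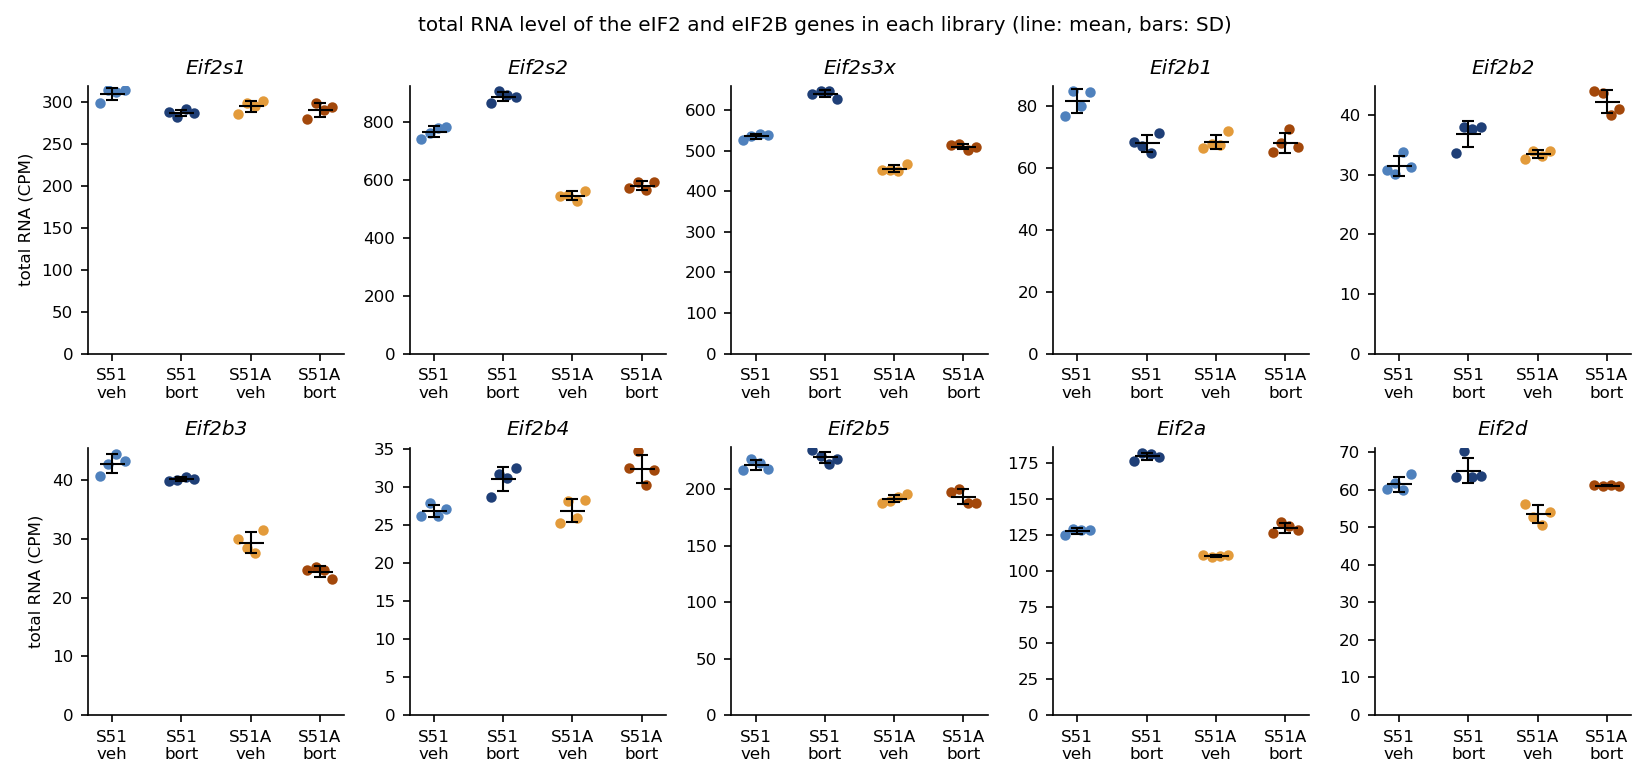
Total RNA level in CPM (y axis, from 0) of each gene (panels) in every library, by group (x axis; veh, vehicle; bort, bortezomib), with the mean and SD of each group. Eif2a rises from 128 to 180 CPM on average with bortezomib in S51 and from 110.5 to 129.9 in S51A, and Eif2b3 and Eif2s2 lie lower in both S51A groups than in both S51 groups.

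Eif2a RNA rose with bortezomib while its footprints did not. Total RNA was 125, 129, 128 and 128 CPM in S51 vehicle and 176, 182, 181 and 179 CPM in S51 bortezomib, a rise of 0.49 ± 0.03 (SE) on the log2 scale (adjusted p = 1.0e-12 by edgeR). In S51A it went from 110.5 ± 0.456 to 129.9 ± 3.36 CPM (SD, n = 4 each), a rise of 0.23. The responses differed by -0.26 (adjusted p = 0.00016 by edgeR), and every treated library lay above every vehicle library of its line. RPF of Eif2a was 132, 68.7 and 130.4 CPM in S51 vehicle and 113, 105, 109.7 and 114 CPM in S51 bortezomib. The treated libraries fell between replicate 2 and the others of S51 vehicle.

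The RPF change of Eif2a in S51 was -0.02 with all libraries (adjusted p = 0.94 by edgeR) and -0.25 without replicate 2 (adjusted p = 0.043 by edgeR). The log2 change of its TE in S51 was -0.51 (adjusted p = 0.011 by edgeR) and -0.74 without replicate 2 (adjusted p = 5.8e-09 by edgeR), but it did not pass without replicate 1 or 3 of S51 vehicle RPF (-0.37 and -0.40, adjusted p = 0.11 and 0.058 by edgeR). In S51A the TE change was -0.36 (95% interval -0.61 to -0.11, adjusted p = 0.31 by edgeR), and it passed without S51 vehicle replicate 2 (adjusted p = 0.00091 by edgeR). The TE responses of the lines differed by 0.15, which did not pass. Under bortezomib TE was 0.47 higher in S51A (adjusted p = 0.020 by edgeR), from footprints that differed by 0.00 and total RNA that differed by -0.47. Neither the TE change in S51 nor the TE difference under bortezomib passed within lysates for Eif2a (adjusted p = 0.20 and 0.15 by limma). The estimates within lysates were -0.44 ± 0.19 and 0.47 ± 0.17 (SE), so not passing there does not show equal TE.

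Eif2d was the member whose footprints fell with bortezomib in S51 cells. RPF was 41.8, 52.7 and 45.6 CPM in S51 vehicle and 37.1, 40.2, 27.6 and 31.4 CPM in S51 bortezomib, all lower (log2 change -0.49 ± 0.15 SE, adjusted p = 0.019 by edgeR). In S51A it was 35.5, 41.6, 49.0 and 36.5 CPM under vehicle and 43.5, 49.2, 44.2 and 43.3 CPM under bortezomib, which overlapped (log2 change 0.15, adjusted p = 0.46 by edgeR). The difference of the responses was 0.64 (95% interval 0.22 to 1.05) and did not pass over all genes (adjusted p = 0.098 by edgeR). Under bortezomib all S51A libraries were above all S51 libraries, by 0.44 (adjusted p = 0.025 by edgeR), a call lost without S51 bortezomib replicate 3 or 4 or S51A bortezomib replicate 2 (0.33, 0.41 and 0.40).

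Total RNA of Eif2d changed little in S51 (log2 change 0.08, adjusted p = 0.11 by edgeR) and rose by 0.19 in S51A, from 53.5 ± 2.41 to 61.2 ± 0.0701 CPM (SD, n = 4 each). Its TE was lower with bortezomib in S51 by -0.57 (adjusted p = 0.013 by edgeR) and by -0.50 without S51 vehicle replicate 2 (adjusted p = 0.028 by edgeR). The RPF and TE calls of Eif2d rested on few reads, 42 to 73 per library in S51 bortezomib. The fall in RPF did not pass without S51 bortezomib replicate 3 or 4 (adjusted p = 0.10 and 0.052 by edgeR), and that in TE did not pass without replicate 3 (adjusted p = 0.11 by edgeR) but passed within lysates (adjusted p = 0.042 by limma).

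Levels of different genes can be set side by side only per length, and only footprints have a stated counted region here. In CPM per kb of counted coding sequence, the eIF2B genes lay within 3.34-fold of each other in S51 vehicle, from 30.2 for Eif2b4 to 101 for Eif2b1, and within 2.42-fold in S51 bortezomib. Eif2b1 was the highest of the 5 in every group, followed by Eif2b5 and Eif2b2 in an order that changed, with Eif2b3 and Eif2b4 at the low end. In S51 vehicle the library ranges of neighbours in this order overlapped for Eif2b5 and Eif2b2 and for Eif2b3 and Eif2b4, but not for Eif2b1 and Eif2b5. No word of 29 bases in the counted sequence of the 5 eIF2B genes or Eif2a recurs elsewhere in the genome.

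The eIF2 genes were read under another limit. Words of 29 bases that recur elsewhere in the genome made up 57.3% of the counted sequence of Eif2s1, 84.9% of that of Eif2s2 and 98.3% of that of Eif2s3x, and the column names state that only uniquely mapping reads were kept. Their densities, 155 CPM per kb for Eif2s1, 629 for Eif2s2 and 239 for Eif2s3x in S51 vehicle, may therefore be too low to unequal degrees and are not compared with each other. Eif2a stood at 65.6 and Eif2d at 28.2 CPM per kb in the same group. A gene compared with itself between groups, and the ratio of Eif2s1 to Eif2s2, carry this limit alike in each group. The eIF2γ sum and ratios to it do not, since Eif2s3y enters them in S51A only.

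Among 14 genes whose products act with eIF2, all were tested in RPF. They were Eif2s3y, its assembly factor Cdc123, the GTPase-activating Eif5 and its regulators Bzw1 and Bzw2, the ribosome factors Eif1, Eif1b, Eif1ax and Eif5b, the eIF2D relatives Denr and Mcts1, the eIF2-associated Metap2 and the eIF2Bε kinases Gsk3a and Gsk3b. With bortezomib 3 passed in S51 RPF (2 higher, 1 lower) and 1 in S51A (lower), beside the 30.8% and 20.6% of all genes, with medians of 0.13 and 0.06 beside 0.00 and -0.01 over all genes. Between the lines 2 passed under vehicle, both higher in S51A, and 4 under bortezomib, 3 higher and 1 lower, beside 28.6% and 31.5%. Of the partner genes that passed in RPF, Eif2s3y alone was beyond 1.5-fold. In total RNA Eif1, which guards start codon choice, rose by 0.37 in S51 with bortezomib and fell by 0.26 in S51A on the log2 scale (response difference -0.63, adjusted p = 6.5e-05 by edgeR), and under bortezomib it was lower in S51A by -0.74.

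The 12 genes of the kinases, phosphatase subunits and transcripts that act on or follow eIF2α phosphorylation had 4 members whose RPF response was lower in S51A and none whose response was higher, beside 2.35% of all genes in either direction. In S51 RPF 5 rose with bortezomib and none fell, all 5 beyond 1.5-fold, while 1 rose and 1 fell in S51A, beside 30.8% and 20.6% of all genes. Between the lines 4 passed under vehicle (1 higher and 3 lower in S51A) and 8 under bortezomib (3 higher, 5 lower), beside 28.6% and 31.5%. Atf4, Atf5, Ddit3 and the phosphatase subunit Ppp1r15a rose by 1.46, 1.72, 2.94 and 2.77 on the log2 scale in S51, and their responses were lower in S51A by -1.40, -1.42, -2.42 and -2.12 (adjusted p = 4.1e-05, 0.012, 0.0074 and 0.020 by edgeR). Under bortezomib the RPF of these 4 genes was lower in S51A by -1.98, -3.18, -2.45 and -2.10, and under vehicle that of Atf4 and Atf5 was lower by -0.58 and -1.76, with total RNA at -0.58 and -1.46. The kinase gene Eif2ak3 (PERK) rose in both lines, by 0.78 and 0.87. Under bortezomib it was 0.63 higher in S51A, and Ppp1cc, a catalytic phosphatase subunit, was 0.64 higher. These lists were chosen with earlier results of these libraries known and are no independent evidence.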

How the data were processed

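RPF and total RNA libraries (31 in all) were analysed. The authors deposited raw counts of reads per gene, whole numbers without normalization. According to their methods and the column names, reads were aligned to mm10 with bowtie2, rRNA reads, repeats and non-unique reads were removed, duplicates were marked, and RPF were counted with plastid in the coding sequence less 15 codons at its start and 5 at its end. The submitters' processing notes name Bowtie2, featureCounts and DESeq2. Versions, and the region counted for total RNA, are not given in the sources used here. Library numbers in titles and column names disagree for S51 bortezomib and S51A vehicle, and these columns were assigned by the series record, which states that titles were exchanged and data were not.

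No column of per-sample values was left unused. Counts were fitted in R 4.3.3 with edgeR 4.0.16 (TMM, filterByExpr with 10 counts in a library and 15 in total, glmQLFit over all 4 groups, glmQLFTest), which left 9457 genes in RPF and 11708 in total RNA. TE was the interaction of library kind and group over 9448 genes, with dispersion trends estimated for each kind. Ratios were tested by exact two-sided permutation tests in scipy 1.17.1. Limma 3.58.1 tested within-lysate log ratios.

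Members, lists and tests were chosen with earlier results of these data known. All members are named. Of the 14 partner genes and 12 pathway genes, only those past the test and beyond 1.5-fold in RPF or total RNA in a comparison could be named with values, and Eif2s3y always. No pair of replicates was 1 library deposited more than once (chi-square per gene at least 1.65 in RPF and 2.75 in total RNA). The study calls its replicates both technical and independent, so p-values measure the spread between these samples. Sequences and coordinates are from RefSeq on GRCm38.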

Additional observations from a re-analysis of the deposited data

Results flagged for a closer look

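In groups of 4 libraries, a library far from the others was found for 8 of 77 combinations of gene, kind of library and group, against about 1 in 20 by chance. In RPF these were Eif2b5 in S51A bortezomib (replicate 1 at 146 CPM, the others 129.0 to 132), Eif2d in S51A bortezomib (replicate 2 at 49.2, the others 43.3 to 44.2) and Eif2s3y in S51A vehicle (replicate 4 at 53.9, the others 42.5 to 44.1).

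In total RNA they were Eif2b2 in S51 bortezomib (replicate 1 at 33.7 CPM, the others 37.7 to 38.1), Eif2d in S51 bortezomib (replicate 2 at 70.3), Eif2s1 in S51 vehicle (replicate 1 at 299), Eif2s3x in S51A vehicle (replicate 4 at 468) and Eif2s3y in S51A vehicle (replicate 3 at 56.7). The group of 3 RPF libraries of S51 vehicle, which holds replicate 2, was too small for this check.

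The response to bortezomib in total RNA differed between the lines by the interaction test of edgeR for Eif2a (-0.26, adjusted p = 0.00016), Eif2b1 (0.26, adjusted p = 0.0044) and Eif2s2 (-0.12, adjusted p = 0.045).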

How the results depend on the processing

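Of 3850 log2 fold changes of members under an alternative, 3746 kept their side of the test, 79 lost it, 22 gained it and 3 changed direction with a call on either side. A further 138 changed sign with neither value past the test. The reversals were those of total RNA with bortezomib under library sizes alone, for Eif2b5 in S51 (-0.11) and S51A (-0.10) and for Eif2s2 in S51A (-0.027). The cause was not tested.

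The number of members past the test moved as follows. With no filter it was 0 for RPF of S51A with bortezomib. With library sizes alone it was 1 for TE of S51 with bortezomib and 0 for TE between the lines under bortezomib. With DESeq2 it was 1 for TE of S51A with bortezomib and 1 for the TE response difference. Leaving out each replicate in turn, the number ran from 0 to 4 (RPF, S51 with bortezomib), 0 to 2 (RPF, S51A with bortezomib), 1 to 3 (RPF, lines under vehicle), 1 to 3 (TE, S51 with bortezomib), 0 to 2 (TE, S51A with bortezomib), 0 to 2 (TE, lines under vehicle) and 0 to 4 (TE, lines under bortezomib). The other results on numbers of members stayed within 1.5 times under every alternative run. RPF replicate 2 of S51 vehicle gave the highest value in 6 of these 7 ranges.

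Replicate numbers were shared between groups. In RPF, deviations from group means correlated at -0.158 to 0.261 over 21 pairs of the same number, 3 of them over 0.1. In total RNA all 24 such pairs were above 0 (median 0.0922, 8 over 0.1), while pairs of different numbers had a median of -0.0345 with 0 of 72 over 0.1. Since not every pair was over 0.1, the main fits did not pair the samples by number. In total RNA, libraries of the same number did share some variation, which the main p-values of total RNA do not take into account. With the replicate block 2815 genes of RPF passed for S51 with bortezomib, against 2910 without it, and 2 members against 3, Eif2b4 being lost (0.34). In total RNA the block raised the genes whose responses differed from 2526 to 3348, with 3 members either way. With the block by lysate the members past the test in TE were 1 for S51 with bortezomib, 0 for the lines under vehicle and 0 for the lines under bortezomib. Depth limits Eif2d most, with as few as 42 reads in an RPF library.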
